A study of Rattus norvegicus with 12 samples.

Results

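Interleukin-24 (Il24) and the family of interleukin-6 were followed in the renal cortex of rats dosed with the platinum compound cisplatin, which forms DNA cross-links and injures kidney tubules. The set held 9 genes: the cytokines Il24, Il6, Lif, Il11 and Clcf1, the receptor chains Osmr and Il6st, the transcription factor Stat3 and its feedback inhibitor Socs3. The genes were picked with the cisplatin against water differences of these animals known, Il24 being among the strongest rises. For that reason those differences are described for the 9 genes with no test, and only the contrasts between the 2 experiments were tested on them. On the array 8 of the 9 were measured, among 15645 named genes, with 15 of the 61537 probes outside the controls. No probe was matched to Clcf1.

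Total RNA of renal cortex from 12 male Sprague-Dawley rats (Crl:CD(SD)), 5 weeks old at purchase, was hybridised to 1-colour Agilent arrays, 1 array per animal. By gavage, 3 rats received 3.75 mg/kg/day of cisplatin and were set against 3 rats gavaged with water. In a separate experiment 3 rats received cisplatin intravenously at 0.75 mg/kg/day, set against 3 rats given water intravenously. All treatments lasted 4 weeks. The intravenous dose is that on the label of each sample. A protocol text common to all samples gives 3.75 mg/kg/day, so the dose of these animals is not settled, and route, dose and experiment cannot be told apart.

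Interleukin-6 family cytokines signal through receptor complexes that share the chain gp130, encoded by Il6st. Oncostatin M uses gp130 with the chain encoded by Osmr, and leukaemia inhibitory factor (Lif) uses gp130 with Lifr. Interleukin-24 belongs to the interleukin-10 family and does not use gp130: its receptors pair Il20rb with Il20ra or with Il22ra1. Both routes activate Janus kinases, which phosphorylate STAT3. Phosphorylated STAT3 drives its target genes, among them Socs3, whose protein binds gp130 and the kinases and shuts the signal down. In the kidney this axis is known for its activity in injured tubule epithelium and in the acute-phase response.

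The bases upstream of Il24 and Socs3 are shown because these were the cytokine and the feedback gene with the largest differences within the set. They are RefSeq sequences of assembly GRCr8, both on the minus strand, 250 bases ending just before the annotated start, at chr13:44910761-44911010 for Il24 and chr10:103694769-103695018 for Socs3. Capitals mark a match to TTCNNNGAA, the palindrome that STAT dimers bind.
Il24 promoter: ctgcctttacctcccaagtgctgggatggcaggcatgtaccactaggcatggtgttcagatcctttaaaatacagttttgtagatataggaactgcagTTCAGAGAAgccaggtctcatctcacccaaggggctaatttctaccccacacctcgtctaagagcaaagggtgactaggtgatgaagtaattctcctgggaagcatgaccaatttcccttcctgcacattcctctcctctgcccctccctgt
Socs3 promoter: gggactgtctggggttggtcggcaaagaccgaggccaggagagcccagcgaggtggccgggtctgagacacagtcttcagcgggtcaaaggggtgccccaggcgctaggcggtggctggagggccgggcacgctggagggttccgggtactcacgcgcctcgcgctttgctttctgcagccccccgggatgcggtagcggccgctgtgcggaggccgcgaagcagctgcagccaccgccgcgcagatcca
Promoter windows of 7 of the 9 genes, 250 bases before to 50 after the start, were searched on both strands for that palindrome and for TGANTCA, the AP-1 site. The Il24 window held TTCAGAGAA, its first base 152 bases before the start. The Socs3 window held neither motif, and the same was true of Il6, Il6st and Stat3. TGAGTCA stood 142 bases before the Il11 start and TGATTCA 33 bases before the Osmr start. Of 33469 promoter windows of this length, 8.87% held the palindrome and 7.33% the AP-1 site. A match is a description of letters, and no binding was measured. Each window follows 1 annotated start, and the start used in these rats was not measured. The Socs3 window may therefore miss the promoter in use, and the lack of a motif there covers only these bases.

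Spot signals were divided by the 75th percentile of their array, and this ratio is called the relative signal. It compares samples for 1 probe, not probes with each other. Testing was limited to probes that all 3 arrays of some group read as well above background, as they did 13 of the 15. Those left out were the 1 Il6 probe and 1 of the 2 Il11 probes. Differences are on the log2 scale, ± the standard error, from 1 limma fit over all 12 arrays (n = 3 per group) and 43900 probes, and a gene outside the set is said to rise or fall at an adjusted p under 0.05.

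Of the cytokines in the set, Il24 separated the groups most widely. The relative signal of its 1 probe (A_43_P15489) was 8.61, 8.62 and 9.58 in gavage cisplatin rats, against 0.0257, 0.0482 and 0.0578 in gavage water rats. In the intravenous experiment it was 8.56, 7.76 and 4.58 in cisplatin rats, against 0.0410, 0.0373 and 0.0282 in water rats. Every cisplatin array lay above every water array, and even the lowest, intravenous cisplatin replicate 3, was far from the water values. The log2 difference was 7.75 ± 0.31 by gavage, which is 215-fold, and 7.58 ± 0.31 intravenously, which is 192-fold. Among 12610 genes tested, each by 1 probe, this was the 5th largest rise by gavage and the 3rd largest intravenously. In water rats the probe was still well above background on all 3 gavage arrays and on 2 of 3 intravenous arrays. The size depended on the background correction. With normexp the differences were 6.28 and 6.00. As run here, normexp took the median spot signal, subtracted the background, modelled what remained and added an offset of 50. The shares of these steps in the smaller differences were not tested. In bulk tissue, more cells that make a transcript and more transcript per cell cannot be told apart, for this gene and all others below.

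**Figure D1:**
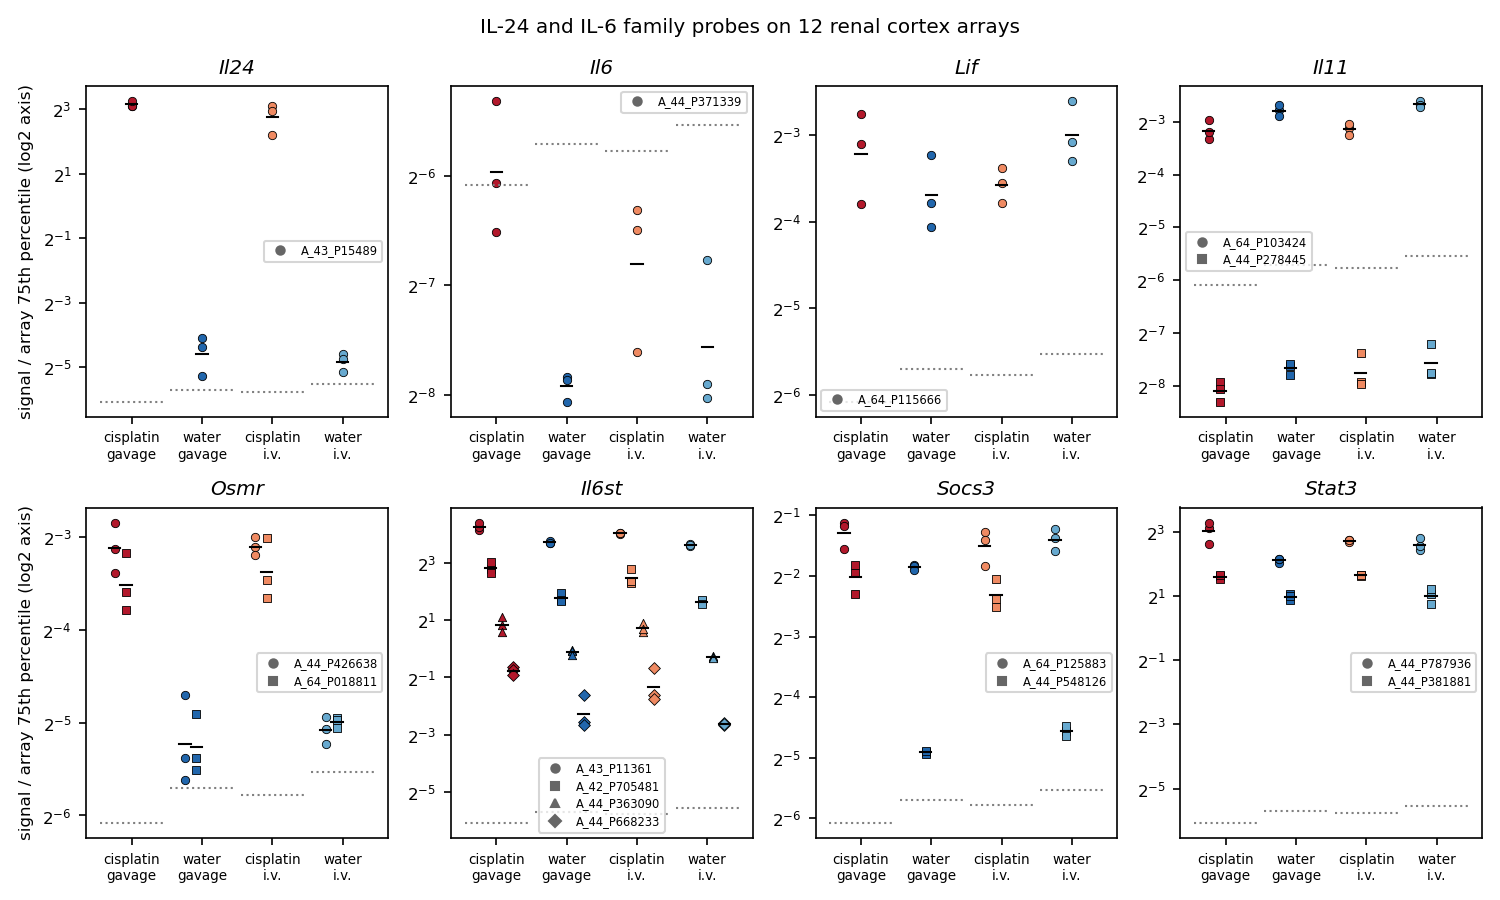
Relative signal (log axis) of the member probes on every array, with cisplatin left of water in each experiment. Points are animals, bars are the means of the log2 values, and the dotted grey line is the mean over a group's arrays of the lowest signal well above background. Il24 separates most widely, with cisplatin arrays at 4.58 to 9.58 and water arrays at 0.0257 to 0.0578.

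Il6, the founding cytokine of the family, was near the limit of detection. Its probe (A_44_P371339) gave 0.0149, 0.0110 and 0.0251 in gavage cisplatin rats, against 0.0044, 0.0043 and 0.0037 in gavage water rats. With intravenous dosing it gave 0.0111, 0.0126 and 0.0051 in cisplatin rats, against 0.0042, 0.0038 and 0.0092 in water rats. The gavage groups did not overlap and the intravenous groups did. Only 1 of the 12 arrays, in gavage cisplatin, was well above background at this probe, so no fold is given.

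Lif, which maintains stem cells and acts on many epithelia, did not separate the gavage groups. Its signal was 0.0719, 0.1163 and 0.1486 in gavage cisplatin rats, against 0.0598, 0.1071 and 0.0725 in gavage water rats, a log2 difference of 0.47 ± 0.30. In the intravenous experiment it was 0.0851, 0.0958 and 0.0726 in cisplatin rats, against 0.1017, 0.1183 and 0.1644 in water rats. There the cisplatin arrays all lay below the water arrays, and the difference was -0.58 ± 0.30. The gavage value turned to -0.11 with the slide as a fixed block.

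Il11, a cytokine tied to fibrosis in several organs, was lower in cisplatin rats on the probe that could be tested (A_64_P103424). It gave 0.0992, 0.1094 and 0.1273 in gavage cisplatin rats, against 0.1452, 0.1556 and 0.1347 in gavage water rats. The intravenous values were 0.1158, 0.1219 and 0.1059 in cisplatin rats, against 0.1643, 0.1558 and 0.1513 in water rats. Neither pair of groups overlapped, and the log2 differences were -0.38 ± 0.11 and -0.46 ± 0.11. This direction depends on the scaling: set to spike-in RNA, the same differences were 0.29 and 0.10, while the median of all probes moved to 0.67 by gavage and 0.53 intravenously. On no array did the other Il11 probe rise well above background.

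Among receptor chains, Osmr was higher in every cisplatin rat on both of its probes. Probe A_44_P426638 gave 0.1387, 0.0955 and 0.1135 in gavage cisplatin rats, against 0.0240, 0.0383 and 0.0203 in gavage water rats. It gave 0.1241, 0.1152 and 0.1086 in intravenous cisplatin rats, against 0.0266, 0.0325 and 0.0299 in intravenous water rats. The groups stood clearly apart, with log2 differences of 2.11 ± 0.22 (4.32-fold) and 1.97 ± 0.22 (3.92-fold). Probe A_64_P018811 differed by 1.74 ± 0.21 and 1.61 ± 0.21, also without overlap. Water levels of both probes sat at the detection limit, well above background on 1 or 2 of 3 arrays in each water group. With normexp the differences shrank to 0.83 and 0.72 for the first probe and 0.64 and 0.75 for the second.

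Il6st was moderately higher on all 4 of its probes, in both experiments and without overlap. On probe A_42_P705481 the signal was 6.87, 6.29 and 8.11 in gavage cisplatin rats, against 3.87, 3.27 and 3.14 in gavage water rats. On the same probe it was 6.83, 4.91 and 5.12 in intravenous cisplatin rats, against 3.15, 3.25 and 2.94 in intravenous water rats. Over the 4 probes the log2 difference spanned 0.55 to 1.51 by gavage and 0.41 to 1.29 intravenously, and the smallest was on A_43_P11361 both times. Probe A_44_P668233, with the largest, gave 0.6352 in intravenous cisplatin replicate 1 beside 0.3275 and 0.2999 in the other two, so the size on it varied between animals.

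Socs3 gave different answers on its 2 probes. Probe A_44_P548126 read 0.204, 0.259 and 0.285 in gavage cisplatin rats, against 0.0333, 0.0327 and 0.0338 in gavage water rats. Its intravenous values were 0.175, 0.241 and 0.192 in cisplatin rats, against 0.0422, 0.0399 and 0.0449 in water rats. On this probe both pairs of groups were far apart, with log2 differences of 2.89 ± 0.14 (7.43-fold) and 2.25 ± 0.14 (4.74-fold), and of 1.61 and 1.27 with normexp.

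Probe A_64_P125883 of Socs3 read 0.340, 0.461 and 0.442 in gavage cisplatin rats, against 0.284, 0.282 and 0.268 in gavage water rats. In the intravenous experiment it read 0.279, 0.413 and 0.379 in cisplatin rats, against 0.428, 0.385 and 0.332 in water rats. Here the gavage groups stood apart narrowly and the intravenous groups overlapped, with differences of 0.56 ± 0.17 and -0.11 ± 0.17. The gavage value was 0.29 with the slide as a fixed block, while probe A_44_P548126 kept 2.62. With spike-in scaling the intravenous value on A_64_P125883 was 0.45. The transcripts that each probe reads were not looked up here.

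Stat3 was moderately higher in gavage cisplatin rats on both of its probes. Probe A_44_P381881 read 3.14, 2.92 and 3.14 in gavage cisplatin rats, against 1.86, 2.11 and 2.00 in gavage water rats, a difference of 0.62 ± 0.11. It read 3.17, 3.08 and 3.20 in intravenous cisplatin rats, against 1.69, 2.12 and 2.33 in intravenous water rats, a difference of 0.64 ± 0.11. The groups did not overlap in either experiment. On probe A_44_P787936 the difference was 0.90 ± 0.16 by gavage and 0.12 ± 0.16 intravenously. There the intravenous cisplatin rats read 6.71, 6.48 and 6.72, within the 5.41, 5.99 and 7.09 of the intravenous water rats. Under a fixed slide block, A_44_P787936 gave only 0.50 by gavage, while A_44_P381881 gave 0.66. These are transcript levels, and the phosphorylation of STAT3 was not measured.

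Counted over the 13 tested member probes, all 3 gavage cisplatin arrays lay above all 3 gavage water arrays on 11 and below on 1, and on the Lif probe they overlapped. In all 43900 probes, 33.4% were higher without overlap and 33.8% lower. Intravenous cisplatin arrays lay above the water arrays on 9 and below on 2, the Il11 and Lif probes, where all probes gave 31.2% and 34.7%. At an adjusted p under 0.05 in limma, 59.6% of all probes were called by gavage and 58.2% intravenously, so a change was the common state of a probe here. The gene set was chosen on these differences, and nothing is read from its counts.

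**Figure D2:**
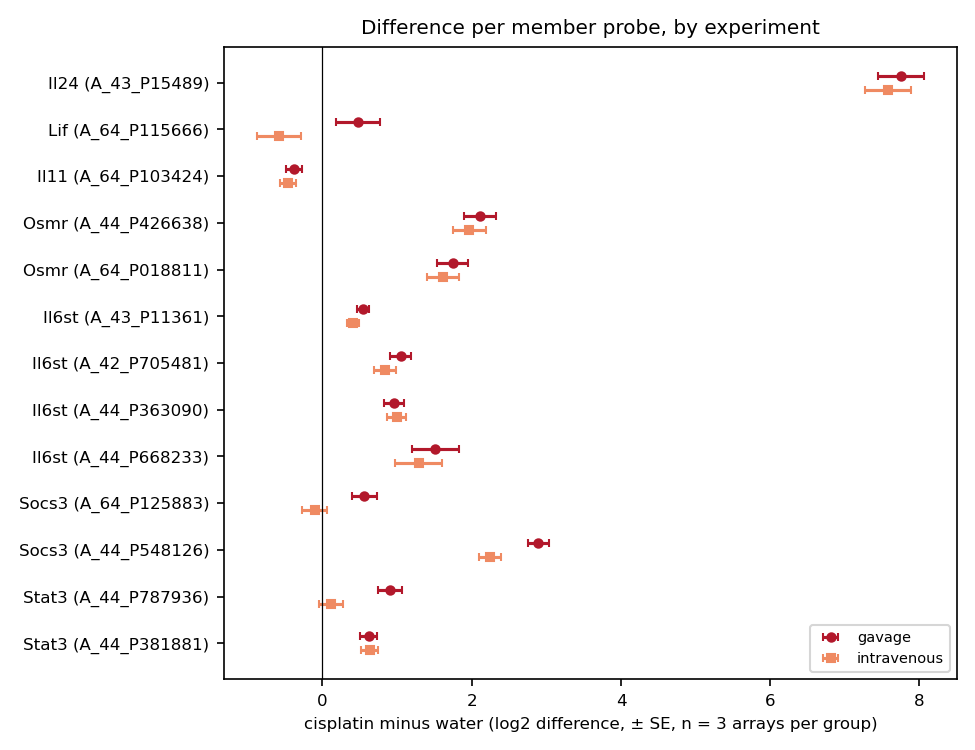
Log2 difference in relative signal, cisplatin minus water, for each tested member probe in the gavage and the intravenous experiment. Points are the limma estimates and bars their standard errors (n = 3 arrays per group). Il24 stands at 7.75 and 7.58, Osmr at 1.61 to 2.11, the 2 Socs3 probes apart from each other, and Il11 below 0 in both experiments.

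The 2 experiments were then set against each other. This contrast is formed from the cisplatin against water differences known when the genes were picked, so it is not independent of that choice. None of the 13 member probes differed between the intravenous and the gavage effect past the test, where 0.815% of all probes did (4 had an unadjusted p under 0.05, and the smallest adjusted p was 0.117 by limma). For Il24 the intravenous effect minus the gavage effect was -0.16 on the log2 scale, with a 95% interval of -1.14 to 0.81. A difference within that interval cannot be told from none with these arrays. For Osmr the differences were -0.14 (-0.82 to 0.54) and -0.13 (-0.80 to 0.54).

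The members whose intravenous effect was lower with an unadjusted p under 0.05 were Stat3, Socs3 and Lif. The difference was -0.79 (95% interval -1.30 to -0.28, limma adjusted p = 0.117) on Stat3 probe A_44_P787936. It was -0.65 (adjusted p = 0.133) on Socs3 probe A_44_P548126 and -0.67 (adjusted p = 0.169) on A_64_P125883 in the same limma fit. For Lif it was -1.05 (-1.98 to -0.13, limma adjusted p = 0.210). The outcome for 2 probes turned on 1 array: without gavage cisplatin replicate 1, Stat3 A_44_P787936 gave -0.99 (limma adjusted p = 0.0068) and Socs3 A_44_P548126 gave -0.78 (limma adjusted p = 0.0331). That array shared slide 1 with the 3 gavage water arrays. Slide 2 carried intravenous water rats beside the other gavage cisplatin rats, and intravenous cisplatin rats were alone on slide 3. The intravenous effect and the slide therefore cannot be told apart.

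**Figure D3:**
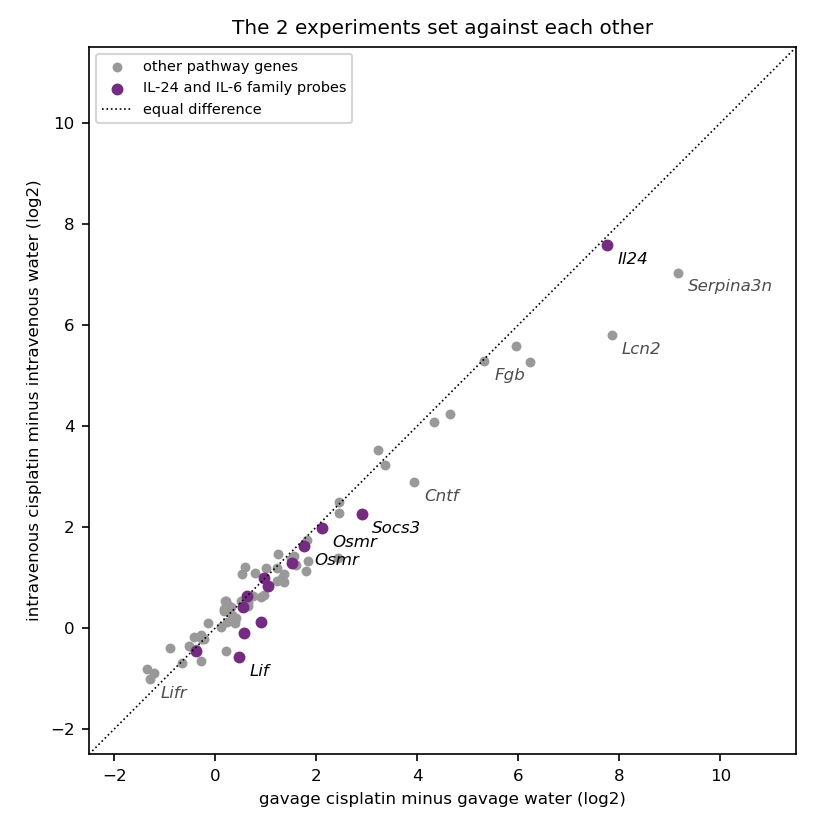
Log2 difference by intravenous dosing (vertical) against that by gavage (horizontal) for member probes and the other pathway genes, each point 1 probe. The dotted line marks equal differences, and a few points are named, Serpina3n and Lcn2 among them after their values were seen. Il24 lies at 7.75 and 7.58, and Lif, at 0.47 and -0.58, lies below the line.

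Intravenous water rats were also compared with gavage water rats, and 0 of the 13 member probes passed the limma test, where 0.0% of all probes did (4 had an unadjusted p under 0.05). Il24 differed by -0.24 ± 0.31 (95% interval -0.93 to 0.44). The member probes with an unadjusted p under 0.05 were Lif, at 0.70, Stat3 A_44_P787936, at 0.49, and the Socs3 probes A_64_P125883, at 0.45, and A_44_P548126, at 0.35. With the slide as a fixed block these 4 were -0.17, -0.11, 0.04 and -0.06. Without gavage cisplatin replicate 1, which shares in the estimate of spread, the Stat3 value of 0.49 had a limma adjusted p of 0.0438.

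Intravenous cisplatin rats compared with gavage cisplatin rats gave 0 of 13 member probes past the limma test, where 0.0569% of all probes passed (2 had an unadjusted p under 0.05). All 3 intravenous cisplatin arrays lay below the gavage ones for Il24 and for Il6st A_43_P11361, as did 7.89% of all probes. Il24 differed by -0.41 ± 0.31 (limma adjusted p = 0.498). Ordered by mean log2 signal, Il24 was highest in gavage cisplatin rats, then intravenous cisplatin, gavage water and intravenous water rats. Neither of the 2 neighbouring pairs of like treatment in that order, cisplatin with cisplatin and water with water, differed past the test.

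The rest of the pathway was read from 5 lists of 79 further genes, 74 with a probe and 63 tested. By gavage 38 rose, 7 fell and 18 did not pass, where 30.3% of all genes rose and 32.7% fell. Intravenously 41 rose, 8 fell and 14 did not pass, where 29.8% rose and 31.7% fell. The median difference over the 63 was 0.64 and 0.61, beside -0.03 and -0.01 over all genes. These values over all genes are the measure for each list below. The lists were chosen with earlier results of these data known, so nothing is read from their counts or medians.

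Among the other ligands, 3 of 7 tested rose and 1 fell by gavage, with a median difference of 0.39, and 3 rose and 3 fell intravenously, with a median of 0.09. Cntf, ciliary neurotrophic factor, also of the gp130 family, rose by 3.94 ± 0.42 by gavage and 2.88 ± 0.42 intravenously (limma adjusted p = 2.6e-05 and 2.6e-04). Its intravenous cisplatin signals were 7.38, 1.95 and 2.18, against 0.470, 0.428 and 0.394 in intravenous water rats. Replicate 1 stood above the other two, and without it the intravenous rise was 2.27. Ebi3, a subunit of interleukin-27 and interleukin-35, rose by 1.35 and 1.06. Ctf1, cardiotrophin-1, fell by 1.35 and by 0.82, and the intravenous fall did not pass the test with spike-in scaling, at -0.26.

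Among the other receptor chains, 4 of 6 tested rose and 2 fell by gavage, and 2 rose and 2 fell intravenously, with medians of 0.78 and 0.58. Il20ra, which pairs with Il20rb to bind interleukin-24, rose by 1.22 ± 0.27 by gavage and 1.17 ± 0.27 intravenously (limma adjusted p = 0.0031 and 0.0043). It read 0.281, 0.273 and 0.324 in gavage cisplatin rats, against 0.139, 0.110 and 0.129 in gavage water rats. Intravenously it read 0.333, 0.136 and 0.168 in cisplatin rats, against 0.0949, 0.0756 and 0.0921 in water rats. Intravenous cisplatin replicate 1 stood highest, and leaving out each array in turn gave an intravenous rise as low as 0.79. The other chains of the interleukin-24 receptors, looked at after the values were seen, were at the limit of detection. Il20rb and Il22ra1 were each well above background on 1 of the 12 arrays, so neither was tested.

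Il6r, the ligand-binding chain for interleukin-6, rose by 1.37 ± 0.21 and 0.91 ± 0.21. Lifr, the gp130 partner for Lif, fell by 1.29 ± 0.20 and by 1.01 ± 0.20. Il11ra1, the interleukin-11 chain, fell by 0.67 and by 0.69, and with spike-in scaling neither fall passed, at -0.0006 and -0.13. In all 6 cisplatin arrays Lifr lay below, and both Osmr probes above, every water array of the same experiment; both genes encode partners of gp130, and Osmr was not tested.

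**Figure D4:**
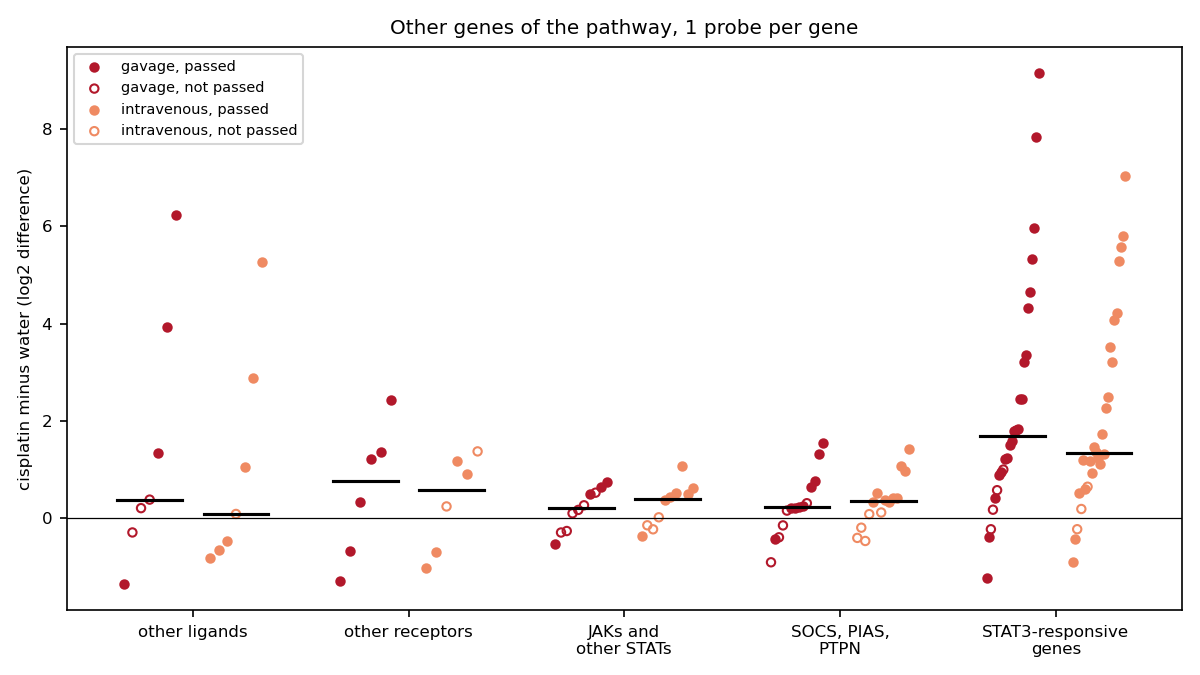
Log2 difference, cisplatin minus water, for the 63 tested genes of the 5 pathway lists, in the gavage and the intravenous experiment. Each point is 1 gene, filled where it passed the limma test and open where it did not, and black bars are list medians. The median of the STAT3-responsive genes stands highest, at 1.70 and 1.35, in lists chosen with earlier results of these data known.

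Of the 10 Janus kinase and STAT genes other than Stat3, 3 rose and 1 fell by gavage and 6 rose and 1 fell intravenously, with medians of 0.22 and 0.40. Among all genes 30.3% rose by gavage and 29.8% intravenously, and the gavage count of 3 is near that share. Jak1, the kinase that gp130 and the interleukin-20 receptors use, rose by 0.51 ± 0.07 and 0.53 ± 0.07. Jak2 rose by 0.75 and 0.63. Jak3, which serves the common gamma chain, rose by 0.65 and 0.50 on the probe that stood for it, while its other probe gave -0.22 and -1.40. Stat5a fell by 0.52 and by 0.36, but was at 0.14 and 0.20 with spike-in scaling.

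Of 14 other inhibitors of the pathway, 8 rose and 1 fell by gavage and 9 rose and 0 fell intravenously (by limma, with 1 lower at an unadjusted p under 0.05), with medians of 0.23 and 0.36. Pias3, whose protein binds activated STAT3, rose by 1.56 ± 0.12 and 1.43 ± 0.12. Ptpn1, a phosphatase that acts on Janus kinases, rose by 1.32 ± 0.15 and 0.98 ± 0.15. Socs5 rose by 0.64 and 0.43. Socs4 rose by 0.52 intravenously, and its gavage rise of 0.21 (limma adjusted p = 0.0375) did not pass under 14 of the 24 alternatives tried.

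Genes known as STAT3 targets, mostly from liver and cell lines, made up the last list, where 20 of 26 tested rose and 2 fell by gavage and 21 rose and 2 fell intravenously. Their median differences were 1.70 and 1.35, the highest of the 5 lists. As the list was chosen with earlier results of these data known, nothing is read from its counts or medians. Crp, Orm1, Reg3b and Reg3g of the list were too dim to test. A2m, the acute-phase protease inhibitor of the rat, rose by 5.96 ± 0.33 and 5.58 ± 0.33, or 5.09 and 4.70 with normexp. These were the lowest values of its 3 tested probes, which reached 8.98 by gavage and 9.15 intravenously. Fgb, the fibrinogen beta chain, rose by 5.32 ± 0.17 and 5.28 ± 0.17. Timp1, an inhibitor of matrix proteases, rose by 4.33 and 4.07, and Egr1, an immediate-early factor, by 3.22 and 3.53. The genes that fell were Il4r and Vegfa in both experiments, named after their values were seen. Many of these genes answer to other factors as well, and their link to STAT3 in these rats was not tested.

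None of the 63 pathway genes differed between the experiments past the limma test, where 0.365% of all genes did (7 had an unadjusted p under 0.05). A further 11 pathway genes with a probe were too dim to test.

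The 5 named genes whose pattern over the 12 arrays was most like that of Il24 were F2rl1 (Pearson r = 0.997), Nnat, Tnfrsf12a, Lgals3 and Sh3bgrl3 (each 0.996). F2rl1 encodes a receptor cleaved by trypsin-like proteases, Tnfrsf12a the receptor of the cytokine TWEAK, and Lgals3 the lectin galectin-3. Their log2 differences were 3.39, 1.75, 4.66, 3.74 and 1.75 by gavage, in that order of genes. The genes compared were those outside the set whose probe was well above background on every cisplatin array, with no uneven spot. Likeness of this kind was common: of 11857 such genes, 1184 had r above 0.95, since all 12 points share the same split into cisplatin and water arrays.

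Markers of cell types were counted in the same way, where 30.3% of all genes rose by gavage and 29.8% intravenously. The marker counts were not tested against these shares. Of 9 fibroblast markers tested, 9 rose by gavage and 8 intravenously. Their summed signal was 112 to 157 in gavage cisplatin rats, against 30.3 to 40.7 in gavage water rats, and 78.1 to 136 in intravenous cisplatin rats, against 27.9 to 38.5 in intravenous water rats. Lum and Postn of that list were not well above background on any water array. Of 11 macrophage markers, 9 rose by gavage and 5 intravenously, and Cd163 was not well above background on any water array. Their sum was 172 to 237 in gavage cisplatin rats, against 95.8 to 106 in gavage water rats, and 177 to 219 in intravenous cisplatin rats, against 95.7 to 181 in intravenous water rats, where the groups overlapped. Of 8 lymphocyte markers 1 rose by gavage and 4 intravenously, and of 5 neutrophil markers tested 0 rose in either experiment by limma, with 0 higher at an unadjusted p under 0.05. Elane, Cxcr1 and Ngp of the neutrophil list were not well above background on any array, each by the probe that stood for it.

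The list for cortex epithelium, the labelled tissue, held 12 markers, among them Havcr1, a gene of injured tubules. Each of the 12 was read well above background on at least 1 array of every group. By gavage 10 fell and 1 rose, and intravenously 9 fell and 1 rose. Their sum was 313 to 389 in gavage cisplatin rats, against 1429 to 1550 in gavage water rats, and 360 to 464 in intravenous cisplatin rats, against 1411 to 1449 in intravenous water rats. Erythrocyte markers fell too, 4 of 5 by gavage and 5 of 5 intravenously, and endothelial markers fell in 4 and 3 of 7. Among all genes 32.7% fell by gavage and 31.7% intravenously, so nothing is read from the endothelial counts. The part of these shifts in the values of Il24, Osmr and Socs3 was not tested.

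Array intensity moved with treatment as well. The 75th percentile of the processed signal was 1439 to 1532 on gavage cisplatin arrays, against 969.7 to 1019.6 on gavage water arrays, and 1387 to 1407 on intravenous cisplatin arrays, against 1008 to 1055 on intravenous water arrays. On the 12 arrays 66.1% to 73.9% of probes were well above background. The differences above are relative to that percentile, and with spike-in scaling the Il24 values were 8.41 and 8.14.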

How the data were processed

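Renal cortex RNA of 12 rats was measured on 12 one-colour arrays of 3 slides. The submitters' processing notes name Agilent Feature Extraction 10.7, and the file headers 10.7.1.1. The deposited intensity, per the file headers, had its background subtracted on each array, with no normalization across arrays. Deposited marks of the same software tell which spots were saturated, uneven or well above background. The authors' deposited value table held a linear ratio of processed intensity to each array's 75th percentile and served as an alternative.

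Log2 processed intensity minus the array's 75th percentile was used, without 1439 control spots and 82 uneven spots. Names came from accessions in the RefSeq table of GRCr8 (28206 of 61537 probes matched 1 symbol); the array design refers to rn4. The 4 group means were fitted to 43900 probes in R 4.3.3 by limma 3.58.1, with 8 residual and 2.12 prior degrees of freedom. Tests were two-sided and p-values adjusted by Benjamini-Hochberg over all of these probes. Of several probes of a pathway gene, the one with the highest mean stood for it; all probes of the 9 genes are given. The steps were tested on simulated data. Tables and figures used Python 3.11.15, numpy 2.4.6, pandas 2.3.3 and matplotlib 3.10.9.

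The 9 genes, the lists and the tests were chosen with earlier results of these data known. Named pathway genes are up to 4 of each list with the smallest p, plus those named as chosen after their values were seen. The labels call the animals biological replicates, 3 per group; the number of arrays limits the precision. Alternatives were the scaling, background correction, filter, slide, replicate number, array weights, 1 probe a gene, the authors' ratios and leaving out each array. The gene Clcf1 was not analysed here. A gene that the naming rule takes is not reported here.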

Additional observations from a re-analysis of the deposited data

How the results depend on the processing

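Of 606 recomputed cisplatin minus water values of member probes, 5 had the opposite sign to the one reported. They were Il11 with spike-in scaling (0.2870 by gavage, 0.1014 intravenously), Lif by gavage with the slide as a fixed block (-0.1065), and Socs3 A_64_P125883 intravenously with spike-in scaling (0.4537) and without intravenous cisplatin replicate 1 (0.0615). Leaving out each array in turn kept Il24 between 7.40 and 7.99 by gavage and between 7.41 and 7.86 intravenously. Within slide 2 alone, gavage cisplatin replicates 2 and 3 exceeded the intravenous water rats by 8.02 for Il24, 1.82 and 1.30 for Osmr, and 2.68 and 0.25 for Socs3, a comparison chosen after seeing the data. Stat5a changed sign with spike-in scaling (0.1445 and 0.2019) and passed in neither experiment. A further 22 of 940 recomputed values of pathway genes no longer passed, 14 of them Socs4 by gavage. With spike-in scaling 86.8% and 86.2% of called probes were higher by gavage and intravenously, and with normexp 39.1% and 40.2%, against 49.7% and 47.4% as reported. A2m was 5.09 and 4.70 with normexp, and 5.19 by gavage under the fixed slide block.

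The count of probes that differed between the intravenous and the gavage effect, 358, was unstable: 0 with quantile normalization, with spike-in scaling, with no filter and with the replicate block, 597 with normexp, 617 with the filter on all arrays, 775 with the slide as a random block and 2685 with array weights. Between the water groups the count of 0 became 5 with normexp, 1 with the filter on all arrays, 10 with the slide as a fixed block and 1942 with array weights, where 1 member probe was called, Socs3 A_64_P125883 at 0.4788. Between the cisplatin groups the count of 25 became 14 with the filter on all arrays, 15 with 1 probe a gene and 0 with the replicate block. Leaving out each array gave 23509 to 26794 probes by gavage, 22475 to 25827 intravenously, 0 to 2926 for the difference of effects, 0 to 1253 between water groups and 0 to 4297 between cisplatin groups. It gave 39 to 46 and 45 to 50 pathway genes, and 0 to 2 and 0 to 1 member probes for the difference of effects and between water groups. Same-numbered animals did not deviate together (correlations between -0.36 and 0.19), so the numbers do not pair the samples; with the replicate block 25487 and 24759 probes and 45 and 49 pathway genes were called, against 26150 and 25567 probes without it.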

Other observations

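Probes of 1 gene differed in what they read for some members. Where the probe with the highest mean stood for the gene, Socs3 ranked 2997 of 12610 genes by gavage and 6944 intravenously, at 0.56 and -0.11, while its other probe gave 2.89 and 2.25. Stat3 ranked 1994 and 5357 at 0.90 and 0.12, while its other probe gave 0.62 and 0.64. Osmr and Il6st had all their probes on the same side in both experiments. Il22ra2, a decoy receptor for interleukin-22 named after its values were seen, read well above background in all 6 cisplatin rats, in no gavage water rat and in 1 intravenous water rat. Its signals were low, and gavage cisplatin replicate 1 read 0.278 beside 0.0545 and 0.0429 in the others. The gavage difference passed (limma adjusted p = 0.0099) and the intravenous difference did not (limma adjusted p = 0.101). The probe entered the test only through the cisplatin groups, so these p-values set low signals against values at the detection limit. The intravenous and gavage effects on Il22ra2 did not differ past the test (limma adjusted p = 0.576), so no difference between the experiments is read from it.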
